A study of Mus musculus with 2 samples.

Results

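The 10 genes described here encode the mouse major histocompatibility complex (MHC) class I molecules and the machinery that loads them. They are B2m, H2-K1, H2-D1, H2-Q7, H2-T22, H2-T23, Tap1, Tap2, Tapbp and Nlrc5. They were chosen by symbol, and all 10 were found among the 31056 rows of the gene table. The study measured RNA of single CD4+ CD25+ cells, a surface phenotype that enriches regulatory T (Treg) cells, in 1 spleen library and 1 lymph node library. The mice were healthy Myc fl/fl Foxp3 Cre/WT females, in which Treg cells with and without Myc live side by side, since each cell uses a single X chromosome. All cells of both libraries carry floxed copies of Myc, which encodes a growth-promoting transcription factor, and come from animals with a single Cre-bearing copy of the X-linked gene Foxp3. YFP+ and YFP- cells were sorted and loaded together into 1 droplet lane per tissue. The sources used here do not state the age, strain or number of the mice, or the share of YFP+ cells. Class I genes differ in sequence between mouse strains, so the strain could alter how reads were assigned to them.

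Class I molecules sit on nearly all nucleated cells and display peptides from inside the cell to CD8+ T cells and natural killer cells. A heavy chain, encoded by the classical genes H2-K1 and H2-D1 or by non-classical genes such as H2-Q7, H2-T22 and H2-T23, pairs with the light chain beta-2 microglobulin, the product of B2m. Tap1 and Tap2 form the transporter that moves peptides into the endoplasmic reticulum, tapasin (Tapbp) bridges it to empty heavy chains, and Nlrc5 is the transcriptional activator of class I genes. Interferons raise the transcription of most of these genes in many cell types.

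B2m (ENSMUSG00000060802) spans 122147686 to 122153083 of chromosome 2 (GRCm38), and Nlrc5 (ENSMUSG00000074151) spans 94434356 to 94527272 of chromosome 8, both on the plus strand. The other 8 genes lie in the H2 complex on chromosome 17. The lowest coordinate is 33915899 for Tapbp, 33996017 for H2-K1, 34187553 for Tap1 and 34203527 for Tap2. It is 35262730 for H2-D1, 35439155 for H2-Q7, 36029773 for H2-T23 and 36037128 for H2-T22. H2-K1, H2-T23 and H2-T22 are on the minus strand, so for them this is the 3' end, and the others are on the plus strand. The annotation lists all 10 as protein coding.

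The RefSeq promoter table of build GRCm38.p6 holds 8 of the 10 genes, and Tap2 and Nlrc5 have no entry. The 250 bases before the start of 4 genes are printed because the RNA of H2-T22 and H2-T23 was past the fold used here in cells with the interferon-induced gene Ifit1, while that of B2m and H2-K1 was not. H2-T22 is chr17:36042743-36042992, minus strand. H2-T23 is chr17:36032702-36032951, minus strand. B2m is chr2:122147437-122147686, plus strand. H2-K1 is chr17:34000348-34000597, minus strand, the entry nearest the annotated start of the 2 that the table gives. Capitals mark an interferon-stimulated response element (ISRE: GAAA, any 2 bases, GAAA, or its reverse complement) in the first 3 and a kappa B element (GGGG, any 2 bases, TCCC) in H2-K1, where 2 overlapping matches on opposite strands form a single run.
H2-T22: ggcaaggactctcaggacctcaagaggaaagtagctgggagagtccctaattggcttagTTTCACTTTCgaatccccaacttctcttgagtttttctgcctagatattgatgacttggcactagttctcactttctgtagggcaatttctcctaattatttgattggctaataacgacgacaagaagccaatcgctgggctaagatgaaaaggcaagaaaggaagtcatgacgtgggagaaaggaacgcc
H2-T23: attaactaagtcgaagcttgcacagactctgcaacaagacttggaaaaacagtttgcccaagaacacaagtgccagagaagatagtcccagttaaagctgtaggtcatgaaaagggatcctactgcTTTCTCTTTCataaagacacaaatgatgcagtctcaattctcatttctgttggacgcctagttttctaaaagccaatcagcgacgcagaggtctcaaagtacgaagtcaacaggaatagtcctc
B2m: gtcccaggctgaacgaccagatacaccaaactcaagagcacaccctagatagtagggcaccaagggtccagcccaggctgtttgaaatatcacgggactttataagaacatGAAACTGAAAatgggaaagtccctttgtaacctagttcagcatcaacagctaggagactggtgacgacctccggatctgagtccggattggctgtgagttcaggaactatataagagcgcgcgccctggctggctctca
H2-K1: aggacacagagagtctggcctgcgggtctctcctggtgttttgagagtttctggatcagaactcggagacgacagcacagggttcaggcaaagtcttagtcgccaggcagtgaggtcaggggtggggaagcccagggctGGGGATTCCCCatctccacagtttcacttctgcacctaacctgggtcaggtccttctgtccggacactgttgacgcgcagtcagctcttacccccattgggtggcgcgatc

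The ISRE letters, searched on both strands in windows that also held 50 bases after the start, were in 3 of the 8 promoters, those of B2m, H2-T22 and H2-T23, and in 3.44% of 32851 promoters. The first base of the match lay 191 bases before the start in H2-T22, 124 bases before it in H2-T23 and 139 bases before it in B2m. These distances are from the start of the RefSeq entry. The window of H2-T23 lies partly inside the gene as annotated, its match included. Those of H2-D1 and Tapbp lie wholly inside the annotated genes. The kappa B letters were in the promoters of H2-K1, H2-D1 and H2-Q7 and in 1.67% of all promoters. The X2 box of class I promoters (TGACGC) was in 2 of 8, H2-K1 and H2-D1, and in 7.40% of all. The Y box (ATTGG) was in 8 of 8 and in 37.4% of all, and the gamma-activated sequence (TTCNNNGAA) in 0 of 8 and in 8.30% of all. No ISRE or kappa B match overlapped another of these motifs. These are matches of letters and not measured binding sites. Sites that depart from these letters were not searched for. A promoter without an ISRE match, such as that of H2-K1, H2-D1, H2-Q7, Tap1 or Tapbp, may therefore still hold an interferon response element. The RNA of Tap1 and Tapbp, which had no match, was also past the fold in cells with Ifit1 in both tissues. That of B2m, which had a match, was not. Whether these letters relate to the Ifit1 differences was not tested.

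In spleen, 6840 barcodes carried 16868549 UMIs (unique molecular identifiers, which tag single captured RNA molecules), and in lymph node 5079 barcodes carried 13324306. After filtering, 6543 spleen cells (median 1935 UMIs) and 4820 lymph node cells (median 2031 UMIs) remained, and 45 kept barcodes occurred in both libraries. With 1 library per tissue there is no replicate, so no test and no p-value is given. Levels are summed UMIs scaled to a total of 1000000 (CPM), which do not compare one gene with another, and every interval is a 95% interval of counting error only. T cell markers summed to 4223 CPM in spleen and 4115 CPM in lymph node, and Treg markers to 1565 and 1481 CPM. Haemoglobin genes summed to 0.961 CPM in spleen, with Hba-a2 at 0, and to 326 CPM in lymph node. The 5 B cell markers summed to 581 and 731 CPM, most of it Ighm.

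Class I RNA was present in nearly every cell of both tissues. After thinning each cell to 1200 UMIs, which left 6018 spleen and 4568 lymph node cells, B2m was detected in 99.2% of spleen cells and 99.2% of lymph node cells, with a median of 5 and 6 UMIs per cell. H2-D1 was detected in 97.3% of spleen and 97.5% of lymph node cells, and H2-K1 in 93.5% and 95.1%. H2-Q7, which encodes a Qa-2 class I molecule, was detected in 55.6% of spleen cells (interval 54.3 to 56.8) and 61.8% of lymph node cells (interval 60.4 to 63.2). Nlrc5 was detected in 2.82% of spleen and 2.98% of lymph node cells, too few for a statement on single cells. The counts of B2m, H2-K1 and H2-D1 per thinned cell varied more than Poisson counts would, with variance over mean of 1.48, 1.41 and 1.45 in spleen and 1.45, 1.32 and 1.40 in lymph node. For H2-Q7 that ratio was 1.204 in spleen and 1.229 in lymph node. For H2-T22, H2-T23, Tap1, Tap2, Tapbp and Nlrc5 it lay between 0.988 and 1.12. At the same relative spread between cells, variance over mean is larger for a gene with more UMIs per cell. These values therefore do not show which genes varied more between cells.

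The tissues had much the same class I levels, apart from H2-Q7. B2m was at 4630 CPM in spleen (interval 4598 to 4663) and 4666 CPM in lymph node (interval 4629 to 4703), a ratio of 0.992 (interval 0.982 to 1.003). H2-D1 was at 3374 and 3359 CPM (ratio 1.004), and H2-K1 at 2477 CPM in spleen and 2627 CPM in lymph node (ratio 0.943, interval 0.929 to 0.956). H2-Q7 was at 633 CPM in spleen and 777 CPM in lymph node, a ratio of 0.815 (interval 0.793 to 0.838). It was the member farthest from equal between the libraries, and its neighbouring gene H2-Q6, named from the list of other class I genes, had a ratio of 0.726 (interval 0.687 to 0.768).

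The remaining members differed less. H2-T22 was at 276 CPM in spleen and 265 CPM in lymph node, H2-T23 at 380 and 393 CPM, Tap1 at 168 and 166 CPM, and Tap2 at 173 and 176 CPM, with the interval of each ratio holding 1. Tapbp was at 237 CPM in spleen and 212 CPM in lymph node (ratio 1.12, interval 1.06 to 1.17). Nlrc5 was at 22.1 and 26.0 CPM (ratio 0.849, interval 0.731 to 0.987), on 367 and 339 UMIs. Counts use a level at least 25% higher, or a ratio of at most 0.8, as the fold of a call, over genes at 50 CPM or more in the library, which Nlrc5 does not reach. Of the 9 members counted, 0 were past it in either direction, where 1.99% of 2507 genes were higher and 2.31% lower in spleen. Of genes outside the 10, Tapbpl, a tapasin-related editor of bound peptides, had a spleen over lymph node ratio of 0.794 (interval 0.724 to 0.871).

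Cells with a UMI of Ifit1, a gene induced by type I interferon, were compared with cells without one. In both tissues the Ifit1+ cells had more RNA of the heavy chains H2-T22 and H2-T23 and of the loading genes Tap1 and Tapbp. B2m, H2-K1, H2-D1 and H2-Q7 were also higher, but by less. There were 522 Ifit1+ cells of 6543 in spleen and 240 of 4820 in lymph node. In spleen, H2-T22, whose product binds the receptors of some gamma delta T cells, was at 433 CPM in Ifit1+ cells and 262 CPM in Ifit1- cells, a ratio of 1.66 (interval 1.52 to 1.81). In lymph node it was at 367 CPM in Ifit1+ cells and 259 CPM in Ifit1- cells, a ratio of 1.42 (interval 1.24 to 1.61).

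H2-T23, which encodes Qa-1, the ligand of inhibitory CD94/NKG2A receptors, was at 571 CPM in Ifit1+ and 363 CPM in Ifit1- spleen cells (ratio 1.57, interval 1.46 to 1.69). In lymph node H2-T23 was at 518 and 386 CPM (ratio 1.34, interval 1.2 to 1.49). The intervals of both genes stood above 1 in both tissues. Some reads could have been miscounted between genes. Of the 90-base windows in the last 500 bases of H2-T22, 26.5% also occur in H2-T10. H2-T10 has no row in the gene table, so nothing was counted for it, and its RNA could have been counted as H2-T22. Of the windows of H2-T23, 13.4% occur in Rab33b, Hook2 or H2-T-ps. Whether this altered the Ifit1 ratios was not tested. The other 8 members shared 0% of their windows with another gene.

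Among the loading genes, Tapbp was at 334 CPM in Ifit1+ and 228 CPM in Ifit1- spleen cells (ratio 1.46, interval 1.33 to 1.61), and at 310 and 207 CPM in lymph node (ratio 1.5, interval 1.30 to 1.73). Tap1 was at 230 and 162 CPM in spleen (ratio 1.42, interval 1.26 to 1.60) and at 233 and 162 CPM in lymph node (ratio 1.43, interval 1.21 to 1.69). Tap2, the partner of Tap1 in the transporter, was past the fold in lymph node alone, with 259 CPM in Ifit1+ and 171 CPM in Ifit1- cells (ratio 1.51, interval 1.29 to 1.77). In spleen Tap2 was at 188 and 172 CPM (ratio 1.09, interval 0.960 to 1.24), and the difference between these ratios was not tested. Nlrc5 was at 29.5 and 21.4 CPM in spleen and at 33.7 and 25.5 CPM in lymph node, with ratios of 1.38 and 1.32 whose intervals hold 1.

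For B2m, H2-K1, H2-D1 and H2-Q7 the Ifit1 ratios lay between 1.07 and 1.13 in both libraries. Every interval stood above 1. That of B2m in spleen was 1.10 to 1.15, and that of H2-Q7 in lymph node 1.0004 to 1.19. B2m was at 5162 CPM in Ifit1+ and 4582 CPM in Ifit1- spleen cells, and at 5041 and 4645 CPM in lymph node. In all, 4 of 9 members were past the fold higher in spleen, against 3.54% of 2514 genes, and 5 of 9 in lymph node, against 6.16% of 2515 genes. No member was past the fold lower, in which direction 7.6% of genes in spleen and 11.1% in lymph node were. The median log2 ratio of the 10 members was 0.32 in spleen and 0.41 in lymph node, where that of all genes counted was -0.04 and -0.03. Ifit1+ and Ifit1- cells had similar depth, with medians of 2124.5 and 1924 UMIs in spleen and 2179 and 2025.5 UMIs in lymph node. Haemoglobin genes summed to 104 CPM in Ifit1+ and 338 CPM in Ifit1- lymph node cells, and to 0 and 1.05 CPM in spleen.

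**Figure D1:**
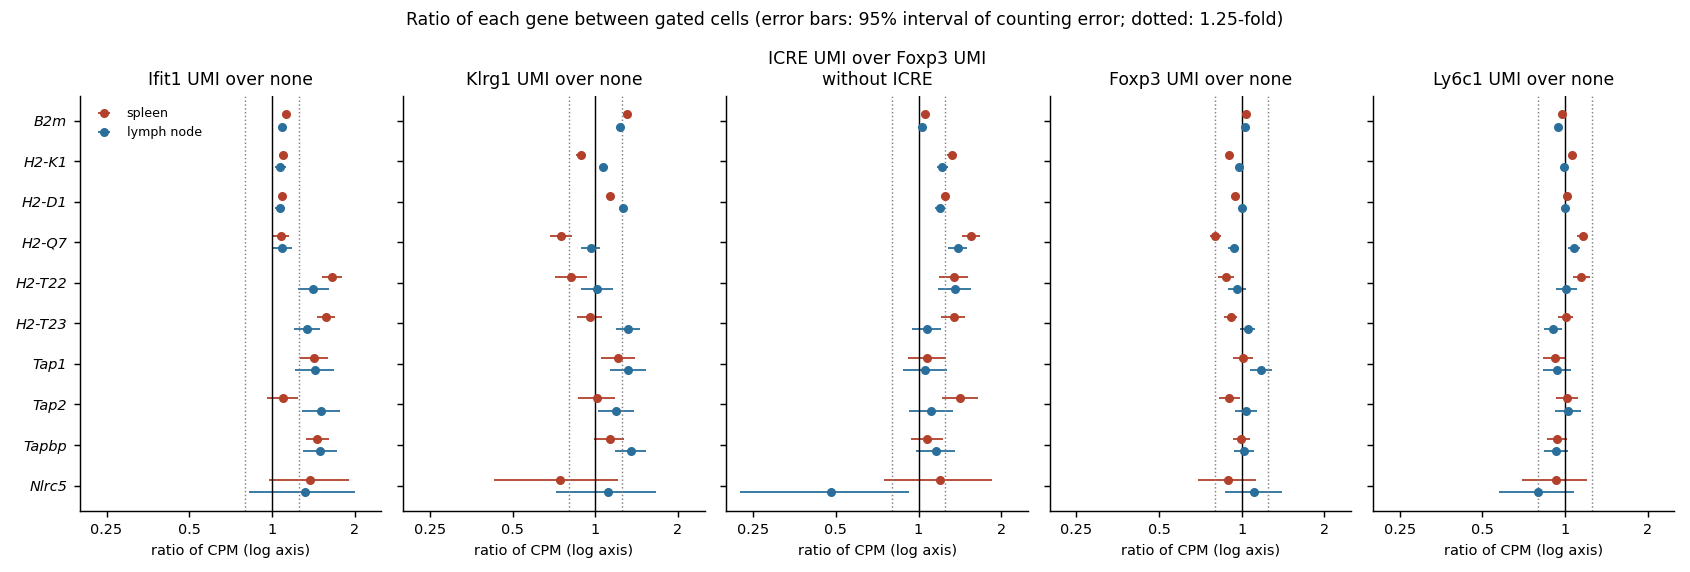
Ratio of CPM of each gene between gated cells and their reference in 5 contrasts (log axis), with spleen in red above lymph node in blue. Bars are 95% intervals of counting error, and dotted lines mark the fold of a call. In the Ifit1 panel H2-T22, H2-T23, Tap1 and Tapbp lie beyond it in both tissues, while B2m, H2-K1, H2-D1 and H2-Q7 lie between 1.07 and 1.13.

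With more Ifit1 UMIs in the cell, H2-T22 and H2-T23 stood higher at each step in both libraries. In spleen cells with 0, 1, 2 and 3 or more Ifit1 UMIs, H2-T22 was at 262, 363, 512 and 632 CPM, and H2-T23 at 363, 493, 646 and 804 CPM. Tapbp was at 228, 296, 392 and 425 CPM, and Tap1 at 162, 208, 258 and 291 CPM. B2m was at 4582, 4980, 5418 and 5630 CPM, and H2-K1 at 2457, 2621, 2776 and 2910 CPM. In lymph node, H2-T22 was at 259, 301, 504 and 529 CPM over the same steps and H2-T23 at 386, 460, 550 and 698 CPM. Tapbp was at 207, 246, 504 and 437 CPM, while Tap1 was at 162, 240, 107 and 268 CPM. The lymph node steps at 2 and at 3 or more hold 23 and 45 cells, and the value of Tap1 at 2 Ifit1 UMIs rests on 7 UMIs.

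Cells with UMIs of both Ifit1 and Ifit3, another interferon-induced gene, numbered 129 in spleen and 53 in lymph node. Relative to cells with neither, Tapbp was 2.26-fold higher in spleen and 2.37-fold higher in lymph node in these cells. H2-T22 was 2.32-fold and 2.07-fold higher, H2-T23 2.11-fold and 2.03-fold, and Tap1 1.76-fold and 1.96-fold. B2m was 1.23-fold and 1.30-fold higher, H2-K1 1.13-fold and 1.24-fold, H2-D1 1.18-fold and 1.22-fold, and H2-Q7 1.13-fold and 1.27-fold. Nlrc5 was at 42.0 CPM in cells with both genes and 21.2 CPM in cells with neither in spleen, and at 66.1 and 25.6 CPM in lymph node, on 15 and 10 UMIs in the cells with both.

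**Figure D2:**
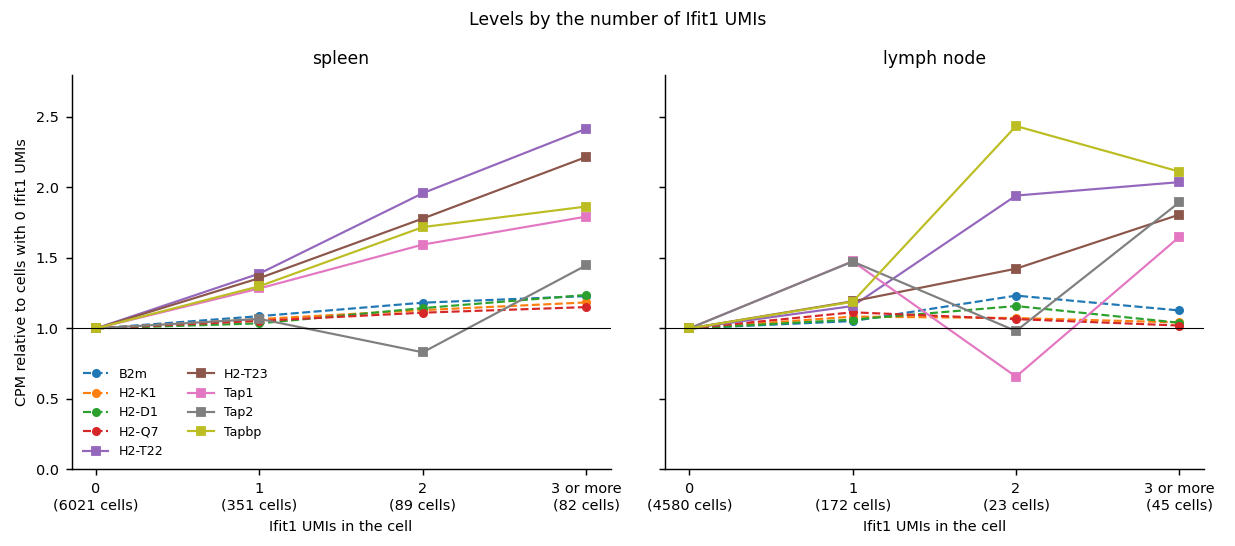
CPM of 9 genes in cells with 0, 1, 2 and 3 or more Ifit1 UMIs, relative to cells with 0, in spleen (left) and lymph node (right). Dashed lines with circles are B2m, H2-K1, H2-D1 and H2-Q7, and solid lines with squares are the other genes. At 3 or more Ifit1 UMIs H2-T22 reached 2.42 times its level at 0 in spleen and 2.04 times in lymph node, where H2-K1 reached 1.18 and 1.04 times.

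Other genes of the pathway gave the following picture in Ifit1+ cells. In the immunoproteasome and peptide supply list, 2 of 5 genes at 50 CPM or more were past the fold higher in each library. Of all genes counted, 3.54% in spleen and 6.16% in lymph node were. Psmb10, an immunoproteasome subunit, was at 261 CPM in Ifit1+ and 184 CPM in Ifit1- spleen cells (ratio 1.41) and at 307 and 197 CPM in lymph node (ratio 1.56). Psmb9 had ratios of 1.41 in spleen and 1.22 in lymph node, and Psmb8 of 1.22 and 1.14. Irf1, a transcription factor that binds interferon response elements, had ratios of 1.34 in spleen and 1.45 in lymph node.

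H2-M3, a class I heavy chain that presents formylated peptides, had ratios of 1.44 in spleen and 1.35 in lymph node. Of 5 chaperones of the endoplasmic reticulum, Tapbpl was past the fold in lymph node (ratio 1.65) and not in spleen (ratio 1.17). All 3 counted interferon-induced genes outside the pathway were higher in both libraries, Isg15 with ratios of 9.31 and 8.05, Bst2 with 2.76 and 2.75, and Ifi27l2a with 2.08 and 1.96. MHC class II genes, which mark B cells and other antigen-presenting cells, were lower. Past the fold were 4 of 5 in spleen, against 7.6% of genes, and 5 of 5 in lymph node, against 11.1%. Cd74, the class II invariant chain, was at 258 CPM in Ifit1+ and 617 CPM in Ifit1- spleen cells and at 429 and 616 CPM in lymph node. B cell markers summed to 491 and 589 CPM in spleen and to 732 and 731 CPM in lymph node.

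The Ifit1 difference was also measured inside the Foxp3 and ICRE gates, a split chosen after the values above were seen. ICRE is a sequence that was added to the reference, and reading it as a mark of the Cre allele of Foxp3 is an assumption. Among spleen cells with a Foxp3 UMI and no ICRE UMI, H2-T22 was at 465 CPM in 99 Ifit1+ and 229 CPM in 1096 Ifit1- cells (ratio 2.03, interval 1.71 to 2.40). Among the matching lymph node cells it was at 343 CPM in 46 Ifit1+ and 255 CPM in 936 Ifit1- cells (ratio 1.35, interval 1.01 to 1.76). Among spleen cells with an ICRE UMI it was at 455 CPM in 53 Ifit1+ and 318 CPM in 496 Ifit1- cells (ratio 1.43, interval 1.06 to 1.90). The other members past the fold in the whole spleen library had ratios of 1.57 (H2-T23), 1.49 (Tap1) and 1.54 (Tapbp) in the Foxp3 gate without ICRE, each interval above 1, while in spleen ICRE+ cells their intervals held 1, with H2-T23 at 1.2 (0.917 to 1.54), Tap1 at 1.44 (0.956 to 2.12) and Tapbp at 1.13 (0.774 to 1.61). In the lymph node Foxp3 gate without ICRE, H2-T23 had a ratio of 1.29 (interval 1.03 to 1.61) and Tap2 of 1.62 (interval 1.18 to 2.19), while Tap1 at 1.21 (interval 0.843 to 1.68) and Tapbp at 1.22 (interval 0.875 to 1.66) held 1. Only 16 lymph node cells had both ICRE and Ifit1, and the intervals of all 10 members there held 1.

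In the Foxp3 gate without ICRE, B2m too was higher in Ifit1+ cells, with ratios of 1.18 (interval 1.13 to 1.23) in spleen and 1.2 (interval 1.12 to 1.28) in lymph node. In spleen cells with ICRE its ratio was 0.969 (interval 0.890 to 1.05), and the difference was not tested.

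ICRE+ cells had more H2-Q7 and H2-T22 RNA in CPM than cells with a Foxp3 UMI and no ICRE UMI, in both tissues. In spleen the contrast set 549 ICRE+ cells against 1195 Foxp3+ ICRE- cells, and in lymph node 379 against 982. H2-Q7 was at 824 CPM in ICRE+ and 529 CPM in Foxp3+ ICRE- spleen cells (ratio 1.56, interval 1.44 to 1.68). In lymph node it was at 1022 and 737 CPM (ratio 1.39, interval 1.28 to 1.51). H2-T22 was at 334 and 249 CPM in spleen (ratio 1.34) and at 351 and 259 CPM in lymph node (ratio 1.35).

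H2-K1 was at 3023 CPM in ICRE+ and 2284 CPM in Foxp3+ ICRE- spleen cells (ratio 1.32, interval 1.27 to 1.38), and at 3142 and 2577 CPM in lymph node (ratio 1.22, interval 1.16 to 1.28). H2-D1 had ratios of 1.253 in spleen and 1.19 in lymph node, and H2-T23 of 1.34 and 1.07. Tap2 was at 223 and 157 CPM in spleen (ratio 1.42) and at 200 and 179.6 CPM in lymph node (ratio 1.11). B2m, Tap1 and Tapbp had ratios between 1.03 and 1.16. Past the fold higher were 6 of 9 members in spleen, against 23.6% of genes, and 2 of 9 in lymph node, against 23.1%, while 0 were lower, against 12.1% and 15.9%. Nlrc5 in lymph node was at 13.7 CPM in ICRE+ and 28.5 CPM in Foxp3+ ICRE- cells (ratio 0.480, interval 0.223 to 0.920), on 10 and 100 UMIs, and at 24.7 and 20.7 CPM in spleen.

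The 2 sides of this contrast differed in depth, with medians of 1663 UMIs in ICRE+ and 2941 UMIs in Foxp3+ ICRE- spleen cells and 1620 and 2859.5 UMIs in lymph node. All 10 genes were lower in CPM in the cells with most UMIs than in those with fewest, in both libraries. Over 4 equal bins of the spleen cells, with medians of 1289, 1677.5, 2363 and 3956 UMIs, H2-Q7 was at 1028, 875, 664 and 431 CPM, and H2-K1 at 3327, 3044, 2623 and 1986 CPM. Over 4 lymph node bins, with medians of 1353, 1728, 2483 and 4136 UMIs, H2-Q7 was at 1138, 988, 832 and 591 CPM. B2m in the deepest bin was at 0.823 of its level in the shallowest in both libraries, and Tap1 at 0.860 in spleen and 0.804 in lymph node.

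The Foxp3+ ICRE- cells were then weighted to the same distribution of UMIs per cell. This brought the ICRE ratios of H2-K1, H2-D1 and H2-Q7 closer to 1. H2-K1 then had a ratio of 1.05 in spleen and 0.951 in lymph node, H2-D1 of 1.02 and 0.959, and H2-Q7 of 1.11 and 1.01. B2m went from ratios of 1.05 in spleen and 1.03 in lymph node to 0.964 and 0.922, below 1 in both. H2-T22 then had ratios of 1.22 in spleen and 1.19 in lymph node, no longer past the fold in either, H2-T23 had 1.17 and 0.911, and Tap2 had 1.31 and 0.991. Tap2 in spleen was then the 1 member past the fold, where 14.5% of genes in spleen and 15.7% in lymph node were higher. Whether the depth of a cell or its ICRE state sets the unmatched differences cannot be told apart here.

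**Figure D3:**
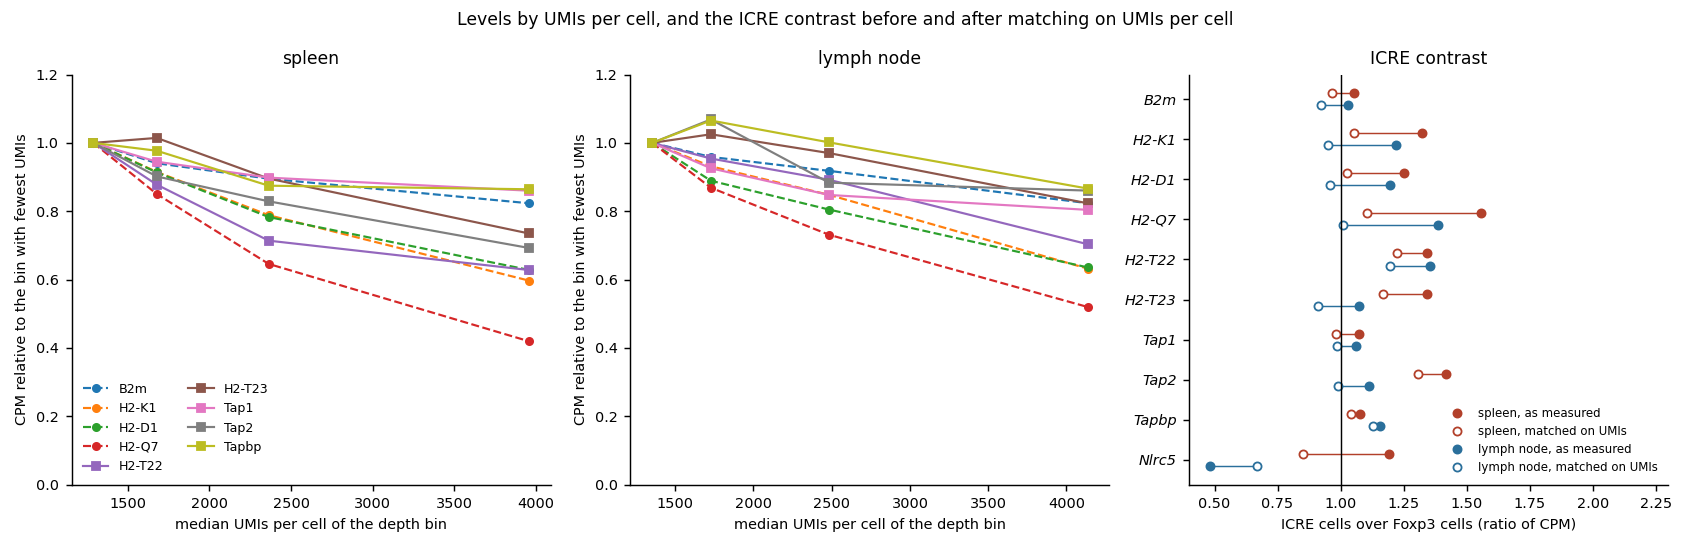
Left and middle, CPM of 9 genes in 4 equal bins of cells by UMIs per cell, relative to the bin with fewest, in spleen and lymph node. Right, ratio of ICRE+ over Foxp3+ ICRE- cells as measured (filled) and after matching on UMIs per cell (open), with spleen in red above lymph node in blue. H2-Q7 comes down to 0.419 of its first bin in spleen and 0.520 in lymph node, and its ICRE ratio moves to 1.11 and 1.01 after matching.

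Of the other class I genes, H2-Q4 had the largest unmatched ICRE ratios by the rule for named genes. It was at 489 CPM in ICRE+ and 266 CPM in Foxp3+ ICRE- spleen cells (ratio 1.84, interval 1.66 to 2.04), and at 563 and 311 CPM in lymph node (ratio 1.81, interval 1.61 to 2.03). H2-M3 had ratios of 1.65 in spleen and 1.15 in lymph node. Chaperones stood on the other side. Past the fold lower were 2 of 5 in each library, against 12.1% of genes in spleen and 15.9% in lymph node. Pdia3, the ERp57 subunit of the loading complex, was at 250 and 335 CPM in spleen (ratio 0.745) and at 232 and 317 CPM in lymph node (ratio 0.731). Irf2, a regulator of class I promoters, had ratios of 1.24 and 1.34. The immunoproteasome list had 0 of 5 genes past the fold in either library. MHC class II genes were lower in spleen, 4 of 5 past the fold, against 12.1% of genes. In lymph node they were higher, 4 of 5 past it, against 23.1%. Cd74 was at 203 CPM in ICRE+ and 504 CPM in Foxp3+ ICRE- spleen cells, and at 678 and 313 CPM in lymph node. B cell markers summed to 339 CPM in ICRE+ and 673 CPM in Foxp3+ ICRE- spleen cells, and to 569 and 786 CPM in lymph node.

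Klrg1 marks terminally differentiated effector Treg cells, and Treg markers summed to 2954 CPM in Klrg1+ and 1474 CPM in Klrg1- spleen cells and to 2485 and 1406 CPM in lymph node. Klrg1+ cells had more RNA of B2m, H2-D1 and Tap1 in both tissues, with every interval of these ratios above 1. In lymph node alone, the intervals of H2-K1, H2-T23, Tap2 and Tapbp also stood above 1. There were 229 Klrg1+ cells in spleen and 223 in lymph node. B2m was at 5938 CPM in Klrg1+ and 4545 CPM in Klrg1- spleen cells (ratio 1.31, interval 1.27 to 1.34), and at 5669 and 4591 CPM in lymph node (ratio 1.23, interval 1.2 to 1.27). H2-D1 was at 3787 and 3347 CPM in spleen (ratio 1.13) and at 4154 and 3300.1 CPM in lymph node (ratio 1.26, interval 1.22 to 1.30).

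H2-K1 differed in direction between the tissues. It was at 2214 CPM in Klrg1+ and 2494 CPM in Klrg1- spleen cells (ratio 0.888, interval 0.850 to 0.926), and at 2802 and 2614 CPM in lymph node (ratio 1.07, interval 1.03 to 1.12). H2-Q7 was at 485 and 643 CPM in spleen (ratio 0.754, interval 0.687 to 0.825) and at 749.6 and 779 CPM in lymph node (ratio 0.962). H2-T23 was at 364 and 382 CPM in spleen (ratio 0.955) and at 506 and 385 CPM in lymph node (ratio 1.32, interval 1.19 to 1.45). Tap1 had ratios of 1.21 in spleen and 1.32 in lymph node, and Tapbp of 1.13 and 1.35. These differences between tissues were not tested.

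In spleen, 1 of 9 members (B2m) was past the fold higher, against 28.9% of genes, and 1 (H2-Q7) lower, against 15.7%. In lymph node, 4 of 9 were higher (H2-D1, H2-T23, Tap1 and Tapbp), against 23.9% of genes, and 0 lower, against 12.3%. Klrg1+ cells were deeper, with medians of 3384 UMIs against 1907 in Klrg1- spleen cells and 3209 against 1991 in lymph node. Matched on UMIs per cell, B2m had ratios of 1.41 in spleen and 1.32 in lymph node, H2-D1 of 1.35 and 1.45, Tap1 of 1.26 and 1.40, and H2-K1 of 1.07 and 1.24. H2-Q7 in spleen then had a ratio of 1.02. The count past the fold became 3 of 9 in spleen and 6 of 9 in lymph node. The share of all genes past the fold after matching is not given here, so these counts are not a result about the members. B cell markers summed to 1041 CPM in Klrg1+ and 551 CPM in Klrg1- spleen cells and to 919 and 717 CPM in lymph node.

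Chaperones were higher in Klrg1+ cells. Past the fold were 4 of 5 in spleen, against 28.9% of genes, and 3 of 5 in lymph node, against 23.9%. The values of these lists are not matched on UMIs per cell, and Klrg1+ cells were deeper. Pdia3 was at 455 CPM in Klrg1+ and 275 CPM in Klrg1- spleen cells (ratio 1.66) and at 365 and 280 CPM in lymph node (ratio 1.30). Calr, which holds newly made heavy chains in the loading complex, was at 427 and 293 CPM in spleen (ratio 1.45) and at 416 and 295 CPM in lymph node (ratio 1.41). Psme2, a subunit of the interferon-induced proteasome activator, was the 1 of 5 supply genes past the fold in each library, with ratios of 1.44 and 1.34. Of the other class I genes, H2-Q4 was at 180.2 CPM in Klrg1+ and 365 CPM in Klrg1- spleen cells (ratio 0.493) and at 266 and 389 CPM in lymph node (ratio 0.686). Of 5 MHC class II genes, 3 were past the fold lower in each library, against 15.7% of genes in spleen and 12.3% in lymph node.

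A UMI of Foxp3 or of Ly6c1, a surface antigen gene of some naive and memory T cells, went with small differences. Among 1239 Foxp3+ and 5304 Foxp3- spleen cells, 0 of 9 members were past the fold, against 6.68% of genes higher and 7.2% lower, and among 1007 and 3813 lymph node cells 0 of 9, against 4.41% and 4.29%. The largest difference was that of H2-Q7 in spleen, at 536 CPM in Foxp3+ and 670.1 CPM in Foxp3- cells (ratio 0.8001, interval 0.764 to 0.837), just short of the fold. It was past the fold, and the only member past it, with a gate of 2 Foxp3 UMIs (ratio 0.727). Foxp3+ cells were deeper (medians of 2940 and 1793 UMIs in spleen and 2849 and 1846 in lymph node), and matched on UMIs per cell H2-Q7 had ratios of 1.09 in spleen and 1.13 in lymph node, and Tap1 in lymph node 1.27. Among 1373 Ly6c1+ and 5170 Ly6c1- spleen cells, 0 of 9 members were past the fold, against 2.15% of genes higher and 9.59% lower, and among 923 and 3897 lymph node cells 0 of 9, against 2.5% and 9.07%. H2-Q7 was at 712 CPM in Ly6c1+ and 614 CPM in Ly6c1- spleen cells (ratio 1.16) and at 827 and 767 CPM in lymph node (ratio 1.08), and H2-T22 had ratios of 1.15 and 1.01.

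To give levels in groups that do not share cells, each cell was placed in the first of 6 states that it met, in the order Ifit1, Klrg1, ICRE, Foxp3, Ly6c1 and none of these. B2m had the same order in both libraries. It was highest in the Klrg1 state (5838 CPM in spleen and 5593 CPM in lymph node), then in the Ifit1 state (5162 and 5041 CPM) and the ICRE state (5027 and 4899 CPM), whose intervals overlapped. The Foxp3 state (4484 and 4573 CPM), the cells with no gate gene (4458 and 4564 CPM) and the Ly6c1 state (4443 and 4478 CPM) followed, each overlapping its neighbour.

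The states differ in depth, with medians of 1625 UMIs in the ICRE state, 2830 in the Foxp3 state and 3356.5 in the Klrg1 state of spleen, and of 1617.5, 2767 and 3224 in lymph node, and their levels were not matched on depth. H2-K1 and H2-Q7 were highest in the ICRE state in both libraries, which has the fewest UMIs per cell. H2-K1 was there at 3094 CPM in spleen and 3163 CPM in lymph node, and was lowest in the Klrg1 state of spleen (2173 CPM) and the Foxp3 state of lymph node (2541 CPM). H2-Q7 in the ICRE state was at 842 CPM in spleen and 1026 CPM in lymph node, and its lowest levels were 468 CPM in the Klrg1 state of spleen and 731 CPM in the Foxp3 state of lymph node. H2-D1 was highest in the ICRE state of spleen (4122 CPM) and in the Klrg1 state of lymph node (4083 CPM), where the interval overlapped that of ICRE (4022 CPM). H2-T22, H2-T23, Tap1, Tapbp and Nlrc5 were highest in the Ifit1 state in both libraries. In lymph node the interval of the Ifit1 state overlapped that of the next state for all 5, the ICRE state for H2-T22 (353 CPM) and the Klrg1 state for H2-T23 (493 CPM) and Tapbp (267 CPM). For Tap1 and Nlrc5 every state overlapped its neighbour in the order in both libraries. Tap2 was highest in the ICRE state of spleen (234 CPM) and the Ifit1 state of lymph node (259 CPM), and its neighbouring states overlapped throughout.

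**Figure D4:**
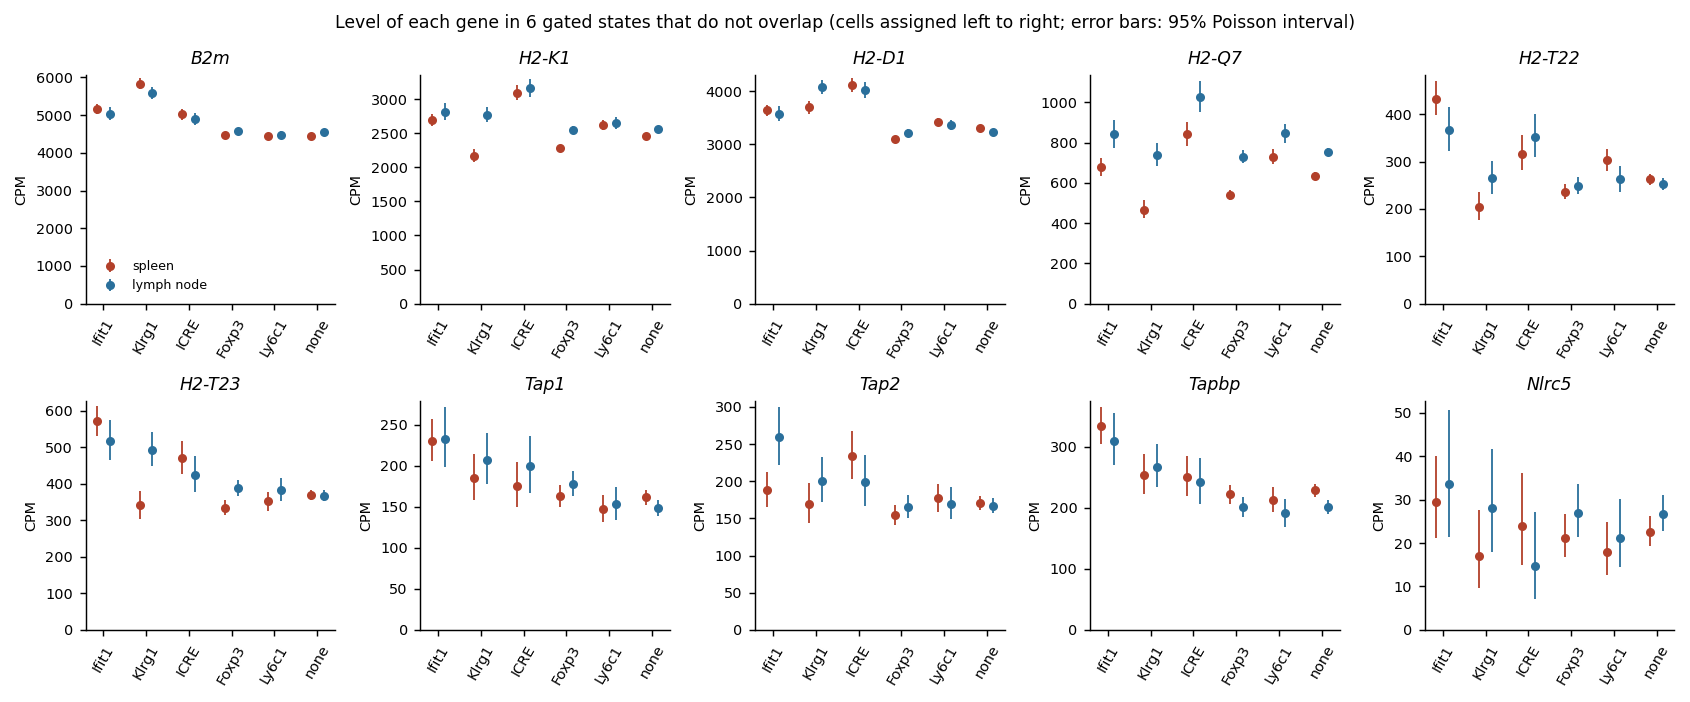
CPM of each of the 10 genes in 6 states that do not share cells, with spleen in red left of lymph node in blue and 95% Poisson intervals as bars. B2m is highest in the Klrg1 state, H2-K1 and H2-Q7 in the ICRE state, which has the fewest UMIs per cell, and H2-T22, H2-T23, Tap1 and Tapbp in the Ifit1 state, in both tissues.

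The balance among class I genes differed between states. B2m UMIs divided by those of H2-K1 and H2-D1 came to 0.994 in the Klrg1 state of spleen and 0.816 in that of lymph node, the highest value of each library, and to 0.697 and 0.682 in the ICRE state, the lowest. The same ratio also went with depth, at 0.675, 0.695, 0.770 and 0.904 over the 4 bins of spleen cells from fewest to most UMIs and at 0.672, 0.710, 0.749 and 0.873 in lymph node, and state and depth cannot be told apart in it. H2-K1 UMIs divided by H2-D1 UMIs were 0.588 in the Klrg1 state of spleen and 0.678 in that of lymph node, where the other 5 states lay between 0.735 and 0.765 in spleen and between 0.786 and 0.794 in lymph node. Over the depth bins H2-K1 divided by H2-D1 lay between 0.710 and 0.753 in spleen and between 0.763 and 0.808 in lymph node. These are ratios of counted molecules and not of protein.

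The lower H2-Q7 level in spleen was present in each of the 6 states, with spleen over lymph node ratios from 0.631 in the Klrg1 state to 0.862 in the Ly6c1 state and every interval below 1. H2-Q6 had ratios from 0.511 to 0.767 over the states. In the Klrg1 state H2-K1 (2173 CPM in spleen and 2768 CPM in lymph node, ratio 0.785) and H2-T23 (341 and 493 CPM, ratio 0.691) were also lower in spleen. In cells with no gate gene these had ratios of 0.955 and 1.003. Tapbp was nominally higher in spleen in 5 of the 6 states, with the interval above 1 in the cells with no gate gene (ratio 1.14, interval 1.06 to 1.22).

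**Figure D5:**
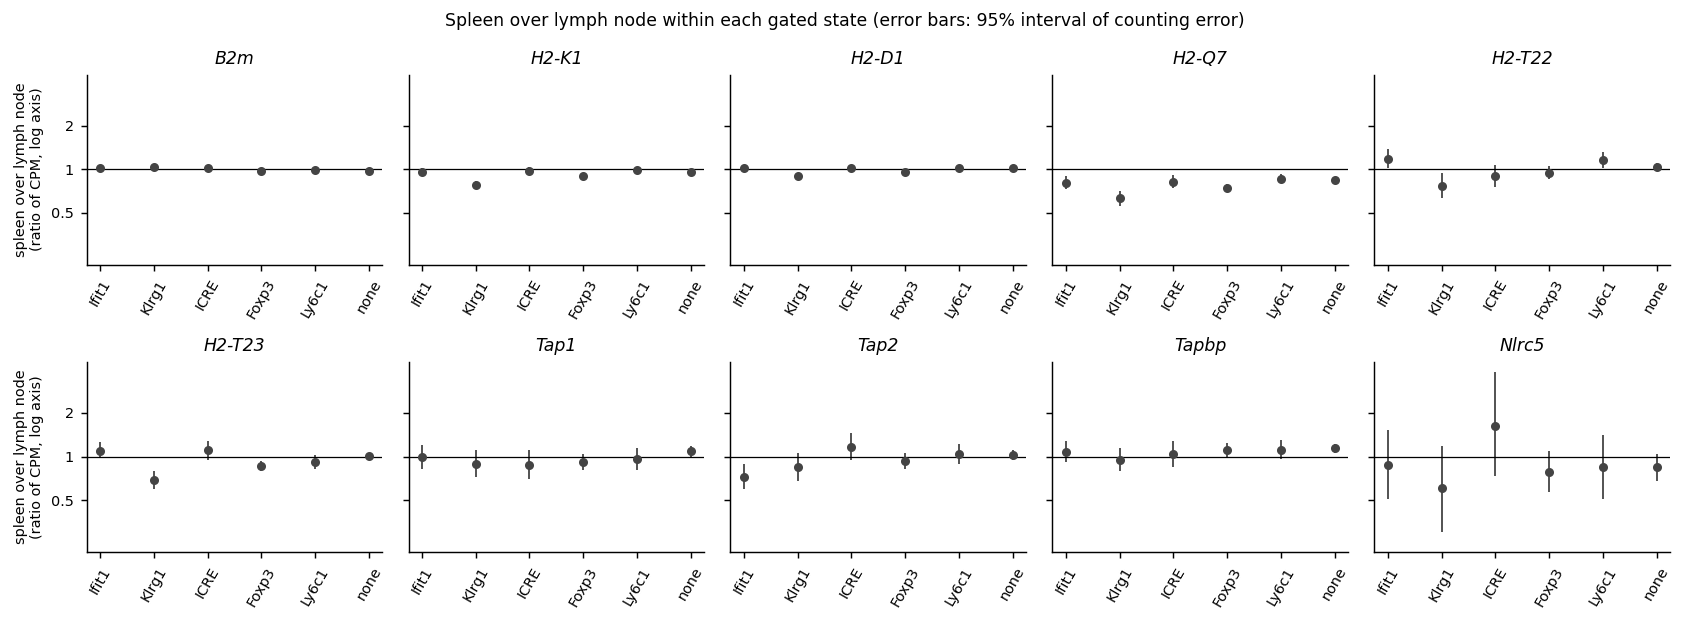
Ratio of spleen over lymph node CPM for each gene within each of 6 states (log axis), with 95% intervals of counting error. H2-Q7 lies below 1 in all 6 states, from 0.631 in the Klrg1 state to 0.862 in the Ly6c1 state, while B2m lies between 0.977 and 1.04.

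A UMI of a gate gene can come from free RNA in a droplet. Cells with UMIs of both Cd79a and Cd79b, the B cell receptor signalling chains, should lack Foxp3. Of 101 such cells in spleen (median 2295 UMIs), 9.90% had a Foxp3 UMI, 1.98% an ICRE UMI, 1.98% a Klrg1 UMI, 2.97% an Ifit1 UMI and 4.95% a Ly6c1 UMI, where all spleen cells had 18.9%, 8.39%, 3.50%, 7.98% and 21.0%. Of 107 such cells in lymph node (median 3092 UMIs) the shares were 12.1%, 7.48%, 4.67%, 3.74% and 13.1%, where all lymph node cells had 20.9%, 7.86%, 4.63%, 4.98% and 19.1%. The lymph node shares of ICRE and Klrg1 in these cells were thus about those of all cells, and the membership of single cells in a gate is uncertain. H2-K1 in these cells was at 1622 CPM in spleen and 1646 CPM in lymph node.

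Over the 12 groups of 6 states in 2 libraries, the genes outside the 10 whose log2 CPM followed the sum of B2m, H2-K1 and H2-D1 most closely were Itm2b (Pearson r 0.952), Mier1 (0.935), Stk24 (0.912), Bin2 (0.908) and Tsc22d4 (0.892), among 2398 genes. Itm2b was highest in the Klrg1 state of lymph node (1595 CPM) and lowest in the Foxp3 state of spleen (1107 CPM), as was the class I sum (12444 and 9867 CPM). The genes closest to the sum of Tap1, Tap2, Tapbp and Nlrc5 were Psmb8 (0.911), Os9 (0.910), Chmp5 (0.898), Zbp1 (0.894) and Psmb9 (0.880). Psmb8, an immunoproteasome subunit encoded beside Tap1, was highest in the Ifit1 state of spleen (1013 CPM) and lowest in the Ly6c1 state of lymph node (760 CPM). Between members, r over these groups was 0.914 for H2-K1 with H2-Q7, 0.897 for Tap1 with Tapbp and 0.036 for B2m with H2-K1. The groups share a library, differ in depth and were partly defined by interferon genes, so these values are descriptions.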

How the data were processed

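Single-cell RNA was captured with the 10x 3' V2 kit, per the labels' protocols. The deposited files hold UMI counts per gene and barcode, which the authors made with Cell Ranger 3.0.1 and mm10, per the submitters' processing notes. The shallowest deposited barcode held 500 UMIs. The sources used here do not state other steps. Barcodes with under 500 genes or over 10% mitochondrial UMIs were left out (297 in spleen, 259 in lymph node). Doublets were not called. Leaving out the highest 6% of cells by UMIs was an alternative.

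A cell was gate-positive with at least 1 raw UMI of the gate gene. UMIs were summed by group of cells and expressed as CPM. Poisson and binomial (Clopper-Pearson) intervals and conditional intervals of ratios are exact 95% intervals (scipy 1.17.1, numpy 2.4.6, pandas 2.3.3, Python 3.11.15). PCR is covered only as far as UMIs remove it. Shares of cells used counts thinned to 1200 UMIs, leaving out 525 spleen and 252 lymph node cells. Matching on UMIs per cell weighted the reference cells over 10 bins of depth. Windows of 90 bases were compared among the 3' ends of GENCODE M21 transcripts, which also gave gene positions.

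Since each tissue has 1 library, nothing was tested for significance. The scripts were tested on simulated data. All 10 members and the 5 gate genes are named, and up to 4 genes per pathway list with the same sign in both libraries, by mean log2 ratio. The members, lists and markers were chosen with earlier results of these data known. Alternatives covered cell filters, thinning, weights, scaling, depth, haemoglobin UMIs, gates, the fold and the level minimum. Some genes of the lists, and an alternative without cells that hold B cell marker UMIs, are not reported here.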

Additional observations from a re-analysis of the deposited data

Results flagged for a closer look

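The Klrg1 ratio of H2-K1 went in opposite directions in the tissues, at 0.888 in spleen and 1.07 in lymph node, with both intervals away from 1. The difference between the libraries was not tested, since each tissue has 1 library. Matched on UMIs per cell, the ratios were 1.07 in spleen and 1.24 in lymph node.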

How the results depend on the processing

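No paired analysis was possible because there is 1 library per tissue, which also leaves no replicate to leave out. Over 18 alternatives, the median log2 ratio of the 10 members stayed within the spread of the members in 130 of 135 comparisons. That spread, which leaves out the lowest and the highest member, is wide, so the count says little about how stable a median was. The Klrg1 median in spleen (-0.023 as measured) ran from -0.21 to 0.17 over the alternatives and always counted as within it. Matching on UMIs per cell moved the Foxp3 median to 0.086 in spleen (as measured -0.14) and 0.16 in lymph node (0.03), and the ICRE median to 0.067 in spleen (0.37) and -0.041 in lymph node (0.18). A gate of 2 UMIs moved the Klrg1 median in lymph node to 0.44 (0.28). Of 1664 comparisons of single members and counts, 290 moved and 3 reversed. A change of sign was called reversed only where the ratio as measured was past the fold. Other changes of sign also occurred and are not in that count. For example, the log2 ratio of H2-Q7 with Foxp3 in spleen went from -0.32 to 0.13 when matched on UMIs per cell. In the Klrg1 contrast in spleen H2-Q7 reversed to 0.031 when matched on UMIs per cell, and Nlrc5 to 0.00069 without the highest 6% of cells by UMIs. In the Ifit1 contrast in lymph node Nlrc5 reversed to -1.27 when thinned to 1200 UMIs. The cause was not tested.

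At 1.5-fold, 2 members in spleen and 1 in lymph node were higher with Ifit1, against 1.67% and 1.75% of all genes counted. With ICRE 1 and 0 were higher, against 7.36% and 7.91%, and with Klrg1 0 and 0, against 13.2% and 8.35%. At 20 CPM or more, Nlrc5 joined the Ifit1 counts, which became 5 and 6, against 5.27% and 10.8% of genes. It also joined lower counts, which became 1 for ICRE in lymph node, against 18.1% of genes, and 2 for Klrg1 in spleen, against 18.9%. The lower count for Ly6c1 in lymph node became 1, against 14.1%. The Ifit1 counts of 4 and 5 were the same when thinned to 1200 UMIs or matched on UMIs per cell, while matching left 1 and 0 members higher for ICRE and gave 3 and 6 for Klrg1, 1 (Tap1) for Foxp3 in lymph node and 1 lower (H2-Q7) between tissues. With every deposited barcode, equal weight per cell or a gate of 2 UMIs, 1 member was past the fold lower with Foxp3 in spleen, against 0 as measured. Thinning gave 4 and 2 for ICRE and 1 and 3 for Klrg1. Of all genes, 4.33% were past the fold higher for matched Foxp3 in lymph node. With a gate of 2 Foxp3 UMIs in spleen, 11.9% were lower, and the matched shares for ICRE are given above. For the other matched, thinned, weighted and filtered counts no share is given here, so they describe only how the counts moved. Nlrc5 had 10 to 41 UMIs on the smaller side of the Ifit1, Klrg1 and ICRE contrasts, too few to settle its direction.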
